A study of Homo sapiens with 8 samples.

Results

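The MYC, MAX and MXD network was followed here as 9 genes, chosen by symbol, out of 21059 genes tested: MYC, MYCL, MAX, MNT, MGA, MXD1, MXD3, MXD4 and MXI1. All 9 symbols had a line in the deposited table. The rule itself goes by symbol and uses no measured value, but the members were chosen with earlier results of these data known. RNA was sequenced from MDA-MB-157 cells, an established estrogen receptor–negative breast cancer cell line. The cells were first adapted to low-glucose medium and then kept in serum-free medium for 48 hours at a glucose concentration of 5 mM in the 4 libraries called low glucose and of 25 mM in the 4 called high glucose. The comparison asks what changes in the transcriptome of these cells at a glucose level that models hyperglycemia. Both groups are the same cell line and the labels name no genetic change, so the results describe 1 line, and no library with an osmotic control is among the 8. The labels do not say whether the replicates were separate cultures, and the p-values then measure only the spread between these libraries, which may be technical. Values are in CPM, the count per 1000000 reads after scaling. A change in bulk RNA cannot tell fewer cells with a transcript from less of it per cell.

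MYC is a transcription factor of the basic helix-loop-helix leucine zipper family that drives ribosome production, nucleotide and polyamine synthesis and cell growth. It binds DNA only as a dimer with MAX, at the E-box CACGTG and close variants of it. MXD1, MXD3, MXD4, MXI1, MNT and MGA pair with MAX as well, occupy the same sites and recruit repressor complexes, the MXD proteins and MNT through SIN3 and histone deacetylases, and MGA through a noncanonical Polycomb complex. MXD1, MXD4 and MNT can also pair with MLX. The ratio of MYC to its MAX-binding rivals is therefore the usual description of the network. In breast cancer, MYC is often amplified or overexpressed, most of all in tumors without hormone receptors.

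The E-box bound by MAX dimers lies in the promoters of only some members. A script searched the RefSeq promoters (GRCh38.p14, 250 bases before to 50 bases after each start) for the 6 letters CACGTG, which read the same on both strands. Of all 35116 promoters in the table, 2548 (7.26%) held the box, and by gene it was 2396 of 27305 (8.77%). Among the members, the 8 other than MYC had an entry, with 13 promoters, and MNT and MXD4 held the box once each. The sequences of these 2 promoters are shown because a box lies in them, and that of MXD1 because MXD1 was the member with the largest change and its window holds no such box. Each runs 5′ to 3′ toward the gene, the box is in capitals, and bases closest to the start that also occur in an annotated transcript were left out for MNT (44 bases) and MXD1 (68 bases).
MXD4, chr4:2262110-2262359, minus strand: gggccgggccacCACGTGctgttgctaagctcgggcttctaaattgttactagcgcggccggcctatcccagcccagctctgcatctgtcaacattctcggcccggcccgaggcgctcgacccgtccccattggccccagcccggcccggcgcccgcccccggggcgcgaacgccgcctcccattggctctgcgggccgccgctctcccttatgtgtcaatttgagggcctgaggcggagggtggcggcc
MNT, chr17:2401105-2401310, minus strand: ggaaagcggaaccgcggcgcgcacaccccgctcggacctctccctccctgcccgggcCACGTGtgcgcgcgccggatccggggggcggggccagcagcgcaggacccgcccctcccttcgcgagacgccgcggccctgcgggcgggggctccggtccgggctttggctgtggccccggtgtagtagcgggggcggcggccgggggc
MXD1, chr2:69914859-69915040, plus strand: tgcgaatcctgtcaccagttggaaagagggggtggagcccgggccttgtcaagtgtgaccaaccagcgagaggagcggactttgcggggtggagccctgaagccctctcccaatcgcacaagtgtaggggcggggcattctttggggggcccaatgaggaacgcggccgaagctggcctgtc
The first base of the box lay at position -238 from the start in MXD4 and at -193 in MNT. A box is a match of letters and not a site shown to be bound, and its absence from a window says nothing of MAX dimers elsewhere at the gene.

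Low glucose libraries held an estimated 10389600 to 12104200 reads, high glucose libraries 9721640 to 12482500, and 3 reads equaled 0.212 to 0.267 CPM. ESR1, which encodes the estrogen receptor, was at 0 to 0.170 CPM in the 8 libraries, below 3 reads in each, and the leukocyte marker PTPRC was at 0 to 0.178 CPM. Several other markers moved with the groups, and their part in the results was not tested. The mesenchymal marker VIM was lower at high glucose (means of 4091 and 2967 CPM, limma adjusted p under 0.05 here and for each gene called lower or higher next), as were the epithelial markers KRT8 (131 and 88.3 CPM) and KRT18 (233 and 170 CPM) and the receptor gene ERBB2 (63.6 and 39.2 CPM). The epithelial marker EPCAM was higher (4.50 and 6.996 CPM), as was the endothelial marker PECAM1 (0.911 to 1.24 and 1.51 to 2.84 CPM), while CDH1 (0.949 and 0.961 CPM) and PGR (4.76 and 5.35 CPM) overlapped between the groups. High glucose replicate 1 stood apart from the rest in its relation to transcript length. Across 11255 genes, which are not independent replicates, each library's deviation from the mean of the other libraries of its group was correlated with transcript length. The Spearman correlation was -0.65 for that library, against 0.25 to 0.46 in the other high glucose libraries and -0.13 to 0.06 at low glucose. That library is part of the mean used for the others of its group, whose values therefore depend on it. Member calls, the counts of some lists and correlations are also given without it.

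Of the 9 members, 4 changed between high and low glucose (limma, adjusted p under 0.05), or 44.4%, beside 46.8% of all 21059 genes. All members had a mean of at least 1 CPM, and of the 14372 genes at that level 62.1% were called. MXD1, MAX and MYC were higher and MXD4 was lower at high glucose. These 4 were also the members whose 4 high glucose libraries did not overlap the 4 low glucose libraries, a separation that 44.5% of all genes showed. The median log2 change of the members was 0.17, and that of all genes was -0.01. Without high glucose replicate 1 the number was again 4, but MGA passed in place of MYC.

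**Figure D1:**
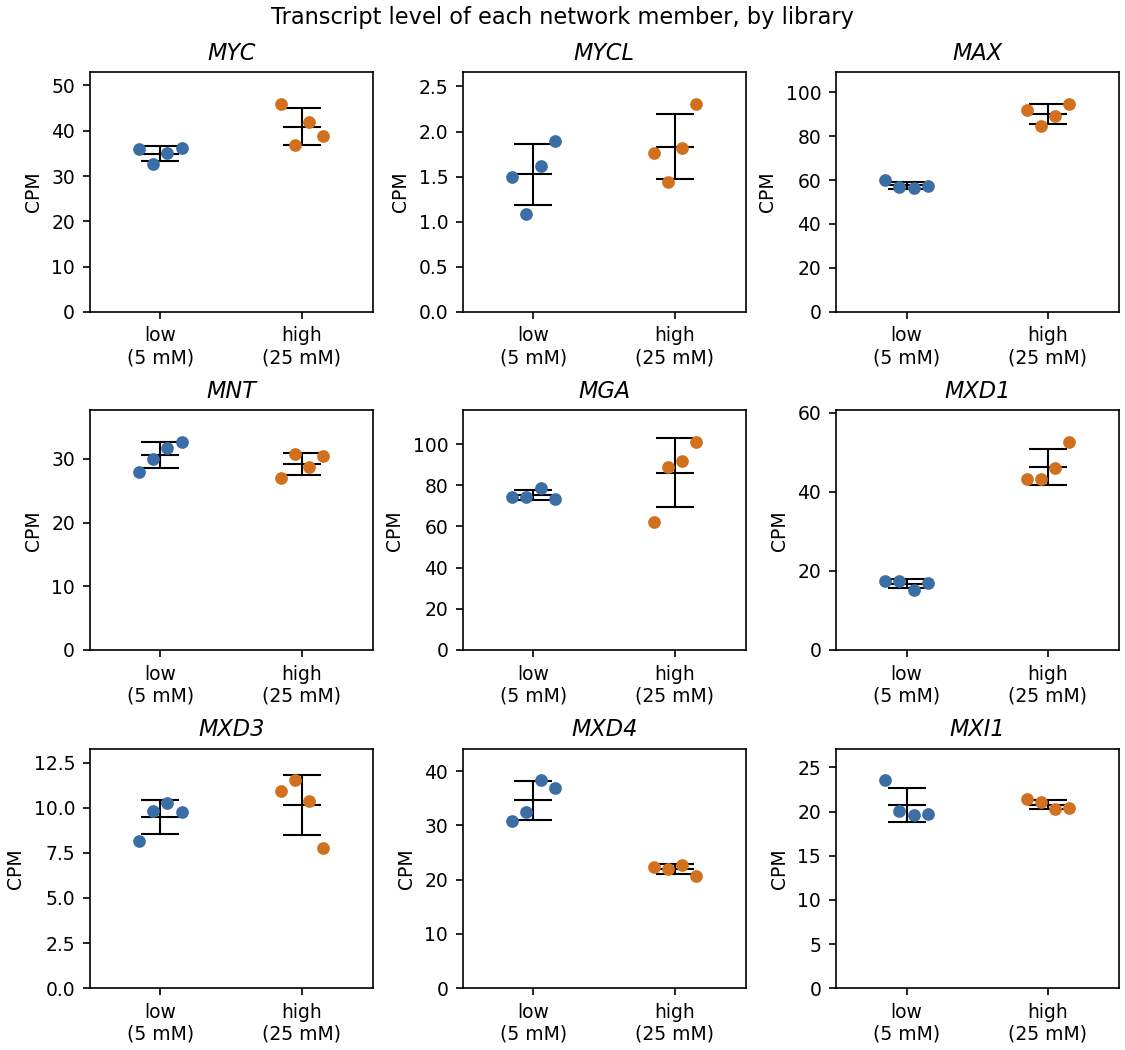
CPM of each member (y axis, from 0, a scale of its own per panel) in the 4 low glucose (blue) and 4 high glucose (orange) libraries, with points in order of replicate number and bars for the mean and SD. MXD1, MAX, MYC and MXD4 have no overlap between groups, and in MGA high glucose replicate 1, at 62.0 CPM, lies below every other library.

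MXD1, the founding MXD repressor and a gene known to rise when cells leave the cycle and differentiate, had the largest change of the network. It was at 17.5, 17.5, 15.2 and 17.0 CPM in low glucose replicates 1 to 4 and at 43.3, 43.1, 46.0 and 52.6 CPM in high glucose replicates 1 to 4. Every high glucose library was far above every low glucose library. The mean rose from 16.8 ± 1.09 to 46.3 ± 4.46 CPM (SD, n = 4 each), a ratio of 2.75 and a log2 change of 1.41 (SE 0.08, limma adjusted p = 1.04e-05). An exact 2-sided permutation test over the 70 assignments of the libraries gave p = 0.0286, the smallest it allows. Of 14372 genes with a mean of at least 1 CPM, 125 rose further than MXD1. Under all 14 alternatives its log2 change stayed between 1.34 and 1.45. MXD1 (ENSG00000059728.11, chromosome 2, 69915109 to 69942945, plus strand of GRCh38.p14) shares 3.73% of its exon bases with SNRNP27 on the same strand. SNRNP27 had a mean of 44.7 CPM, and its part in the reads of MXD1 was not tested.

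MXD4, a repressor of the same family that in other systems is found in resting and differentiated cells, moved the opposite way. It was at 30.8, 32.4, 38.4 and 36.9 CPM at low glucose and at 22.4, 21.9, 22.7 and 20.6 CPM at high glucose. The lowest low glucose library was above the highest high glucose library. Its mean fell from 34.6 ± 3.63 to 21.9 ± 0.909 CPM (SD, n = 4 each), a log2 change of -0.63 (SE 0.07, limma adjusted p = 0.000412), and the exact permutation test gave p = 0.0286. Among the 14372 genes, 1894 fell further. MXD4 (ENSG00000123933.17, chromosome 4, 2247432 to 2262109, minus strand) held a promoter box, MXD1 and MAX held none, and MYC had no promoter entry. Its log2 change ran from -0.69 to -0.58 over the 14 alternatives.

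MXI1 and MXD3, the other 2 members of the MXD family, did not pass the test. MXI1, also known as MXD2 and a transcript induced in hypoxia, was at 23.6, 20.04, 19.6 and 19.7 CPM at low glucose and at 21.4, 21.0, 20.3 and 20.4 CPM at high glucose, so the groups overlapped. Its means of 20.7 ± 1.92 and 20.8 ± 0.514 CPM gave a log2 change of 0.0077 (95% confidence interval -0.14 to 0.15, limma adjusted p = 0.973), and its sign turned between alternatives, from -0.02 to 0.07. MXD3, which is found in proliferating cells, was at 8.15, 9.80, 10.3 and 9.79 CPM and at 10.9, 11.6, 10.4 and 7.79 CPM. Replicate 4 was the lowest high glucose library and lay below all low glucose libraries. The log2 change of MXD3 was 0.08 (interval -0.22 to 0.38, limma adjusted p = 0.662). MXD3 (ENSG00000213347.10, chromosome 5, 177305499 to 177312752, minus strand) shares 24.2% of its exon bases with PRELID1 on the opposite strand and 19.5% with RAB24 on the same strand. PRELID1 had a mean of 206 CPM and RAB24 of 30.4 CPM. Some of the reads of MXD3 may belong to these genes. The use of strand in the counting is not established, and strand cannot tell MXD3 from RAB24. MXI1 (ENSG00000119950.21) lies on chromosome 10, 110207605 to 110287365, plus strand.

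MAX, the partner shared by MYC and the repressors, was higher at high glucose. It was at 59.8, 56.9, 56.2 and 57.2 CPM at low glucose and at 91.9, 84.6, 89.0 and 94.8 CPM at high glucose, with a wide gap between the groups. The mean rose from 57.5 ± 1.57 to 90.1 ± 4.38 CPM (SD, n = 4 each), a log2 change of 0.64 (SE 0.04, limma adjusted p = 1.67e-05; exact permutation p = 0.0286). The log2 change was 0.61 to 0.68 over the 14 alternatives, and 1495 of the 14372 genes rose further. MAX (ENSG00000125952.19, chromosome 14, 65006101 to 65102695, minus strand) shares 13.1% of its exon bases with FNTB on the opposite strand, and FNTB had a mean of 10.1 CPM.

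MYC itself rose by less, and its call rested on the full set of libraries. It was at 35.9, 32.5, 35.1 and 36.2 CPM at low glucose and at 46.0, 36.7, 41.98 and 38.7 CPM at high glucose. The highest low glucose library and the lowest high glucose library were next to each other, at 36.2 and 36.7 CPM. The means of 34.9 ± 1.66 and 40.9 ± 4.05 CPM (SD, n = 4 each) gave a log2 change of 0.22 (SE 0.07, interval 0.05 to 0.39), with a limma adjusted p of 0.0437 and an exact permutation p of 0.0286. The call was kept without high glucose replicate 2 (0.27, adjusted p = 0.0209) and was lost without any 1 of the other 7 libraries, with an adjusted p of 0.0543 to 0.107. Without high glucose replicate 1, which had the highest value, the log2 change was 0.16. MYC (ENSG00000136997.18) lies on chromosome 8, 127735434 to 127742951, plus strand.

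The paralog MYCL, known from small cell lung cancer, had the lowest level of the members, though above 3 reads in each library. Between 13.1 and 26 estimated reads per library fell on it. It was at 1.5, 1.09, 1.61 and 1.89 CPM at low glucose and at 1.76, 1.43, 1.81 and 2.31 CPM at high glucose, and the groups overlapped. The log2 change was 0.17 (interval -0.14 to 0.47, limma adjusted p = 0.344). MYCL (ENSG00000116990.11) lies on chromosome 1, 39895428 to 39901917, minus strand. MYCN, the third MYC gene and a driver of neuroblastoma, was listed at 0 in all 8 libraries. PVT1, a long noncoding RNA gene beside MYC that is often amplified with it, was at 5.83, 4.89, 5.01 and 5.68 CPM at low glucose and at 10.6, 10.9, 9.73 and 6.84 CPM at high glucose. Its mean rose from 5.35 ± 0.474 to 9.52 ± 1.85 CPM (SD, n = 4 each), a log2 change of 0.71 (limma adjusted p = 0.00531), and replicate 4 was the lowest of its high glucose libraries.

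The repressors outside the MXD family showed no change that held up against the replicate error. MNT, a broadly expressed repressor that balances MYC in growing cells, was at 28.0, 29.9, 31.7 and 32.7 CPM at low glucose and at 26.9, 30.8, 28.8 and 30.4 CPM at high glucose. Its groups overlapped, and the log2 change was -0.06 (interval -0.21 to 0.08, limma adjusted p = 0.442). MNT (ENSG00000070444.15) lies on chromosome 17, 2384073 to 2401060, minus strand, and shares 12.2% of its exon bases with a noncoding gene on the opposite strand, at 0.504 CPM. MGA, a very large protein that carries a T-box domain besides its helix-loop-helix domain, was at 74.4, 74.4, 78.5 and 73.2 CPM at low glucose. At high glucose it was at 62.0, 88.9, 91.8 and 101 CPM, so that 3 libraries were above and replicate 1 was below all low glucose libraries.

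The result for MGA depended on that library. With all libraries its log2 change was 0.17 (interval -0.17 to 0.51, limma adjusted p = 0.384). Without high glucose replicate 1 it was 0.32 (adjusted p = 0.00250), and after the length trend was taken out of each library it was 0.16 (adjusted p = 0.0289). The canonical transcript of MGA (ENSG00000174197.16, chromosome 15, 41621224 to 41769940, plus strand) is 12193 bases long, the longest of the members, and high glucose replicate 1 was the library with the strong negative length trend.

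**Figure D2:**
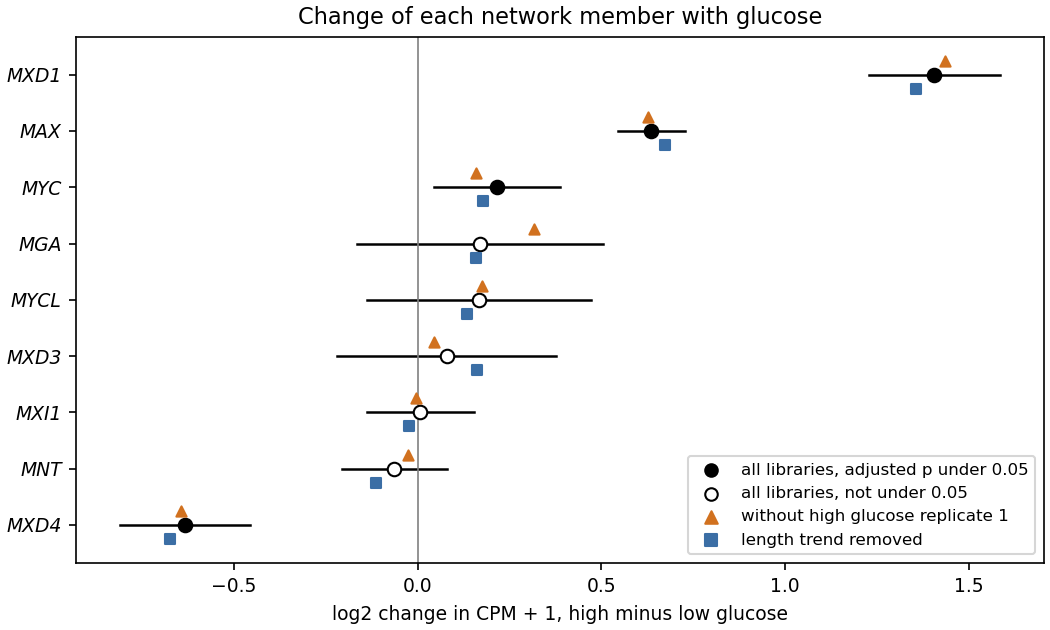
Log2 change of CPM + 1 from low to high glucose for each member (x axis), with the 95% confidence interval from limma as a line, filled circles for an adjusted p under 0.05 and open circles otherwise. Triangles are the values without high glucose replicate 1 and squares those with the length trend removed: MXD1, MAX and MXD4 barely move, while the triangle of MGA lies at 0.32, right of its circle at 0.17.

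Levels were compared between members as CPM per kilobase of the canonical transcript, so that long and short genes could be set side by side. The order depends on that length, and other lengths were not tried. MXD3 has the shortest canonical transcript of the members, at 1067 bases, and some of its reads may belong to PRELID1 and RAB24, so its place is the least certain. MAX was the most abundant member on this scale, at 28.6 ± 0.779 CPM per kilobase at low and 44.8 ± 2.18 at high glucose (SD, n = 4 each). MYC was in second place in both groups, at 9.39 ± 0.447 and 10.99 ± 1.09 CPM per kilobase, and MYCL was last, at 0.433 and 0.520. Behind MYC came MXD4 (8.94), MXD3 (8.90), MNT (6.21), MGA (6.16), MXI1 (5.97) and MXD1 (3.03 CPM per kilobase) at low glucose. At high glucose the order of mean CPM per kilobase was MXD3 (9.52), MXD1 (8.34), MGA (7.05), MXI1 (5.99), MNT (5.93) and MXD4 (5.66). The ranges of neighbors overlapped between MYC and MXD4, MXD4 and MXD3, MNT and MGA, and MGA and MXI1 at low glucose. At high glucose they overlapped for every pair of neighbors from MYC down to MXD4, so that only MAX at the top and MYCL at the bottom stood clear. MXD1 went from the eighth place to the fourth and MXD4 from the third to the eighth.

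Within the MXD family, the shares of MXD1 and MXD4 separated the groups. The summed level of its 4 genes was 26.8 ± 1.06 CPM per kilobase at low glucose (25.5 to 27.9) and 29.5 ± 1.03 at high glucose (28.0 to 30.3). Of this sum, MXD1 made up 9.81% to 12.4% in the low and 25.6% to 33.9% in the high glucose libraries. MXD4 made up 31.1% to 35.5% and 18.7% to 19.7%, whereas MXD3 (means 33.1% and 32.2%) and MXI1 (22.3% and 20.3%) took shares that overlapped between the groups. The ratio of MXD1 to MXD4 per kilobase went from 0.343 ± 0.0550 to 1.48 ± 0.203, and was 1.78 in high glucose replicate 4, the highest of its group. These sums, shares and ratios are descriptions without a test, and their sizes depend on the canonical lengths used.

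Relative to MYC, the summed MXD level did not separate the groups, while that of MAX did. The MXD sum was 2.65 to 3.03 times the MYC level per kilobase at low glucose and 2.42 to 3.07 times at high glucose. The ratio of MAX to MYC per kilobase was 2.93 to 3.24 at low and 3.70 to 4.53 at high glucose. Against the sum of the other 8 members, MAX per kilobase stood at 0.585 ± 0.0334 at low and 0.830 ± 0.0471 at high glucose. Transcript ratios are not protein ratios, and protein was not measured in these files.

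**Figure D3:**
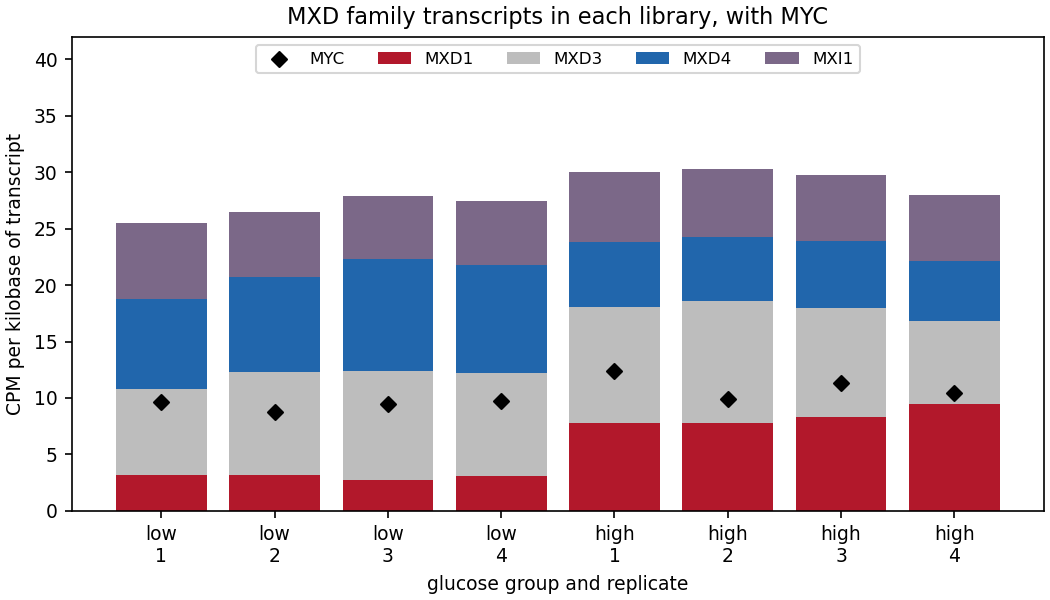
CPM per kilobase of transcript (y axis) of the 4 MXD genes, stacked, in each of the 8 libraries (x axis, group and replicate), with MYC as a black diamond. The stacks reach 25.5 to 27.9 at low and 28.0 to 30.3 at high glucose, the MXD1 part is larger and the MXD4 part smaller in each high glucose library.

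Between replicates of the same group, the coefficient of variation in CPM was 2.72% to 10.5% at low glucose for the 8 members other than MYCL, and 21.9% for MYCL. At high glucose it ran from 2.47% for MXI1 and 4.15% for MXD4 to 16.2% for MXD3, 19.5% for MGA and 19.7% for MYCL. The genes whose pattern over the 8 libraries was most like that of MYC, by Pearson correlation of log2(CPM + 1) over 11296 genes with a mean of at least 5 CPM, were ACP1 (r = 0.98), PLP2 (0.97) and CISD1 (0.97). ACP1 is a protein tyrosine phosphatase, PLP2 a membrane proteolipid and CISD1 an iron-sulfur protein of the outer mitochondrial membrane. The 3 most like MAX were USP1 (r = 0.999), a deubiquitinase of DNA repair, DHX15 (0.998), a splicing helicase, and STK17A (0.997), a kinase. The 8 points fall into 2 groups, so no p is given. In ACP1, PLP2 and CISD1, as in MYC, high glucose replicate 1 had the highest value of the 8 libraries. Without that library r with MYC was 0.96 for ACP1, 0.95 for PLP2 and 0.92 for CISD1, and ranked 8, 10 and 47 among all genes, and r with MAX was 0.999 for USP1, 0.998 for DHX15 and 0.997 for STK17A, at ranks 4, 12 and 17.  USP1 was at 46.6 ± 0.892 and 76.2 ± 3.80 CPM, whereas ACP1 was at 99.3 ± 3.87 and 109 ± 7.37 CPM, a difference of 0.13 on the log2 scale that did not pass the test (limma adjusted p = 0.0879).

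Genes around the network were followed in 9 lists of 162 entries, of which 159 had a line in the table. Most are well expressed, so their counts are read beside the 14372 genes with a mean of at least 1 CPM, of which 62.1% were called, 29.5% higher and 32.6% lower, with a median log2 change of -0.04. Without high glucose replicate 1, the genes called numbered 12 in the SIN3-HDAC list, 10 in PRC1.6, 18 in MYC protein stability, 23 in ribosome biogenesis and 28 in metabolism and growth, beside 11, 9, 16, 19 and 27 with all libraries. When single libraries were left out, 8899 to 10156 of all genes were called, beside 9849 with all libraries. Over the same omissions, 6 to 9 other E-box factors and 11 to 13 MYC-repressed genes were called, beside 9 and 12. No test of a list against other genes was made.

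The corepressor through which MXD proteins and MNT act held mostly higher transcripts. Of 15 SIN3-HDAC genes, 10 rose, 1 fell and 4 did not pass, with a median log2 change of 0.34. SAP130, a subunit that helps to assemble the SIN3A complex, was at 47.4 to 50.9 CPM at low glucose and rose to between 129 and 150 CPM, which is 1.504 on the log2 scale (SE 0.05, limma adjusted p = 2.00e-06). The histone-binding subunit RBBP7 rose from 171 ± 2.23 to 232 ± 4.92 CPM and the deacetylase HDAC1 from 72.1 ± 0.630 to 96.4 ± 4.84 CPM (SD, n = 4 each), log2 changes of 0.44 and 0.41. The scaffold genes differed from these, with SIN3B lower (log2 change -0.19, limma adjusted p = 0.00434) and SIN3A at 0.10 without passing the test (adjusted p = 0.304), both chosen after their values were seen.

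In the PRC1.6 complex of MGA, 7 of 13 genes rose and 2 fell, with a median log2 change of 0.29, and HDAC1, HDAC2 and WDR5 of this list also stand in another one. RYBP and YAF2, which take the same place in noncanonical Polycomb complexes, both rose. RYBP went from 32.5 ± 1.58 to 70.1 ± 2.05 CPM (log2 change 1.09, limma adjusted p = 2.24e-06) and YAF2 from 9.32 ± 0.351 to 16.7 ± 1.03 CPM (0.78, adjusted p = 3.03e-05; SD, n = 4 each). The 2 that fell were RING1 (-0.51), a ubiquitin ligase subunit, and TFDP2 (-0.38), a partner of E2F factors, while their relatives RNF2 (0.41) and TFDP1 (0.37) rose; these 4 were chosen after their values were seen.

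Most genes of the list of activator cofactors of MYC did not pass the test. Of 16 genes, 2 rose and 3 fell, and the median log2 change was -0.01. The elongation factor SUPT5H rose from 50.4 ± 1.38 to 73.3 ± 1.47 CPM (log2 change 0.53, limma adjusted p = 6.10e-06). BIN1, an adaptor protein that binds MYC and is known to inhibit it, so that it is no activator despite its place in the list, fell from 44.5 ± 1.95 to 31.6 ± 3.42 CPM (-0.48, adjusted p = 0.00174; SD, n = 4 each). The number called in this list moved with the processing, from 5 to 8 when only genes with a mean of at least 1 CPM were tested, to 8 with median-of-ratios scaling and to 11 with the length trend removed.

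Genes for factors that set the life of the MYC protein were mostly higher. Of 20, 13 rose and 3 fell, with a median log2 change of 0.47. The list holds factors that shield MYC and factors that lead to its degradation, so these counts give no direction for the protein. The mitotic kinase AURKA, which shields MYC proteins from degradation, rose from 93.5 ± 0.905 to 166 ± 6.84 CPM (log2 change 0.82, limma adjusted p = 2.52e-06). PIM1, a kinase that phosphorylates MYC, rose from 28.7 ± 0.888 to 65.7 ± 4.58 CPM (1.16), and the nucleolar deubiquitinase USP36 from 119 ± 4.76 to 205 ± 11.3 CPM (0.78; SD, n = 4 each). PIM3, a relative of PIM1 chosen after its value was seen, had the largest change of the list, at 1.599. Those that rose also included AXIN1 (0.65), GSK3A (0.52) and PPP2R5A (0.49). The 3 that fell were SKP2 (-0.40), STUB1 (-0.40) and USP28 (-0.36). SKP2 and STUB1 serve in ubiquitin ligation, and USP28 removes ubiquitin from MYC. FBXW7, the ligase that recognizes MYC after phosphorylation, did not pass (0.17, adjusted p = 0.0834). AXIN1, GSK3A, PPP2R5A, SKP2, STUB1, USP28 and FBXW7 were chosen after their values were seen.

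Other factors that read E-boxes through the same kind of domain moved in both directions. Of 13, 6 rose and 3 fell, with a median log2 change of 0.08. MLX, the partner of the glucose-sensing factors, was at 51.4 ± 2.32 and 50.8 ± 4.23 CPM (log2 change -0.02, limma adjusted p = 0.859). MLXIP, which encodes MondoA, rose from 46.4 ± 2.83 to 59.1 ± 3.23 CPM (0.34, adjusted p = 0.00174). MLXIPL, which encodes ChREBP, fell from 5.03 ± 0.382 to 2.35 ± 1.11 CPM (-0.91, adjusted p = 0.0202; SD, n = 4 each), and its adjusted p was 0.0513 without low glucose replicate 2, 0.0523 without low glucose replicate 4 and 0.0522 without high glucose replicate 2. USF2 (0.50), MITF (0.92) and TFE3 (0.18) rose, each without overlap of the groups.

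Ribosome biogenesis genes known to be activated by MYC were higher at high glucose or did not pass the test. Of 26 genes, 19 (73.1%) rose and 7 did not pass, with a median log2 change of 0.39. NOP56 and NOP58, core proteins of the box C/D particles that methylate ribosomal RNA, rose from 187.7 ± 1.55 to 356.2 CPM (348.7 to 365.1 across the 4 libraries, log2 change 0.92, limma adjusted p = 3.61e-07) and from 58.2 ± 1.73 to 92.7 ± 4.21 CPM (0.66, adjusted p = 1.27e-05). WDR43, a factor of the small subunit processome, rose from 59.05 ± 0.293 to 102 ± 5.96 CPM (0.78, adjusted p = 8.88e-06; SD, n = 4 each). Nucleolin, encoded by NCL (0.49), and nucleophosmin, encoded by NPM1 (0.30), rose by less, and fibrillarin, encoded by FBL, was at -0.13 without passing (adjusted p = 0.362). These 3 were chosen after their values were seen.

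Metabolic and growth genes known to be activated by MYC moved in both directions, mostly up. Of 36 genes, 22 (61.1%) rose and 5 fell, with a median log2 change of 0.31. AMD1, an enzyme of polyamine synthesis, rose from 99.8 ± 3.05 to 310.3 ± 11.2 CPM (log2 change 1.63, limma adjusted p = 3.61e-07). HK2, the hexokinase that commits glucose to glycolysis, rose from 34.8 ± 0.867 to 72.4 ± 1.93 CPM (1.03, adjusted p = 9.90e-07), and TFAM, which packages mitochondrial DNA, from 40.8 ± 1.18 to 81.4 ± 1.39 CPM (0.98, adjusted p = 8.61e-07; SD, n = 4 each). ODC1 (1.40), the first enzyme of polyamine synthesis, and SLC3A2 (1.61), a subunit of amino acid transporters, also rose. The 5 that fell were the folate and serine enzymes SHMT2 (-0.90) and MTHFD2 (-0.46), the nucleotide enzymes CAD (-0.62) and IMPDH2 (-0.46) and the glutamine transporter SLC1A5 (-0.20). CCND2 and TERT were below 3 reads in the mean of each group. Apart from AMD1, HK2 and TFAM, these genes were chosen after their values were seen.

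Genes known to be repressed by MYC went both ways, with 7 of 17 higher, 5 lower and a median log2 change of -0.09. PDGFRB, a growth factor receptor, fell from 1456 ± 16.8 to 766 ± 24.2 CPM (log2 change -0.93, limma adjusted p = 2.38e-06), and CDKN2B, which encodes the cell cycle inhibitor p15, fell from 124 ± 1.91 to 76.5 ± 2.73 CPM (-0.69, adjusted p = 3.49e-06). NDRG1, a gene induced by hypoxia and stress, rose from 62.4 ± 3.96 to 133 ± 8.09 CPM (1.08, adjusted p = 1.04e-05; SD, n = 4 each). CDKN1A, which encodes the inhibitor p21 and was chosen after its value was seen, rose with a log2 change of 1.21.

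**Figure D4:**
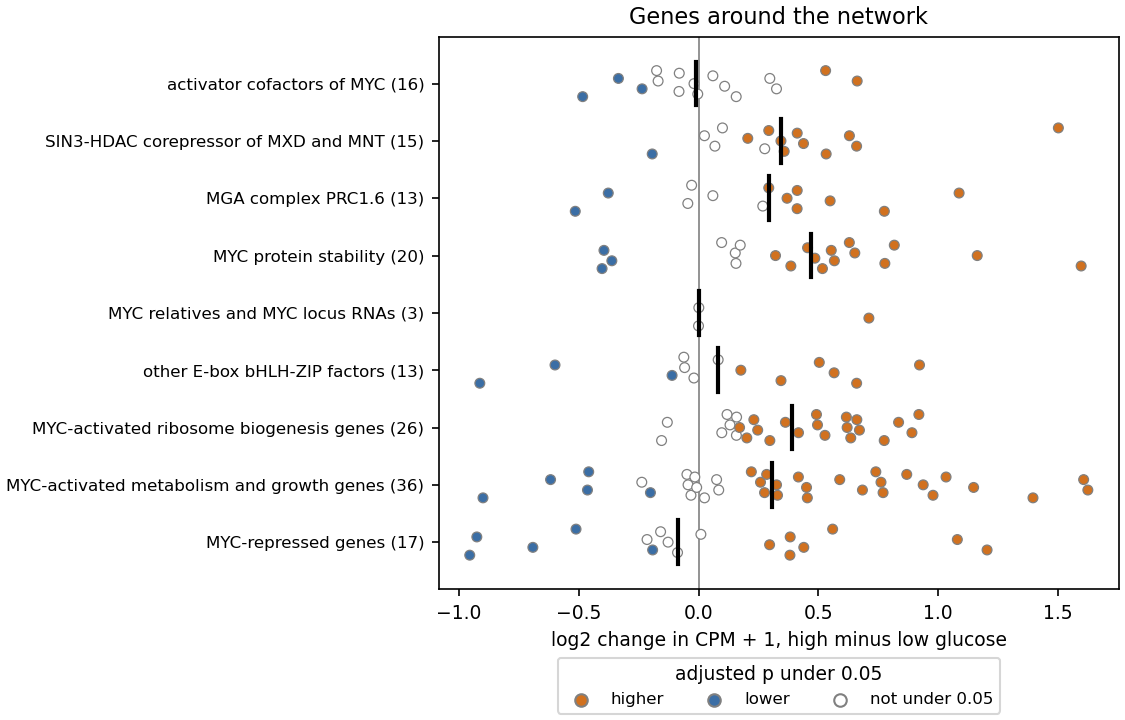
Log2 change of CPM + 1 from low to high glucose (x axis) of each gene in the 9 lists (rows, with the number of genes in the table), orange for higher and blue for lower at an adjusted p under 0.05, white otherwise, with a black bar at the list's median. The medians of the ribosome biogenesis (0.39) and MYC protein stability (0.47) lists lie to the right of 0, and those of the activator cofactors (-0.01) and MYC-repressed genes (-0.09) lie near it.

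The E-box was found in the promoters of 10 of 21 ribosome biogenesis genes with a promoter entry (47.6%) and of 14 of 31 metabolic and growth genes (45.2%). The share was 8.77% over all genes with an entry, expressed here or not. Genes differ in their number of promoters. By promoter, 10 of 26 (38.5%) and 14 of 51 (27.5%) held the box in these lists, beside 7.26% of all promoters. Of matched genes with a mean of at least 1 CPM, the closer comparison for these mostly expressed lists, 1324 held a box and 9124 did not. HK2 held 2 boxes, and they are shown with 12 bases on either side because HK2 is the named metabolic gene with the box. The windows of other named genes with the box follow, of which USP36 and YAF2 rose and MLX and CISD1 did not pass the test. WDR43, which rose, held a box after its start, at position 3, and its window is not shown.
HK2, first box, chr2:74834964-74834993, plus strand: gattgctgcgccCACGTGggagggagcccc
HK2, second box, chr2:74835009-74835038, plus strand: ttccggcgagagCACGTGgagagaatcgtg
USP36, chr17:78840824-78840853, minus strand: gcgtcgcggtgaCACGTGtgtgaggcgccg
YAF2, chr12:42238362-42238391, minus strand: gccggcgagggtCACGTGcgcccaggcagg
MLX, chr17:42567038-42567067, plus strand: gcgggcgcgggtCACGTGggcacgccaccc
CISD1, chr10:58269115-58269144, plus strand: gtcgagctcacaCACGTGcctacgacccgc
Within the lists, genes with a box were not called higher more often than genes without it. In the ribosome biogenesis list 6 of 10 with a box and 9 of 11 without one rose, and in the metabolic list 8 of 14 and 11 of 16 rose. Over all matched genes with a mean of at least 1 CPM, 36.9% of 1324 with a box and 30% of 9124 without one were higher, 28.2% and 33.7% were lower, and the median log2 changes were 0.05 and -0.04. These shares are descriptions without a test, and base composition was not accounted for.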

How the data were processed

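RNA of 8 libraries (4 per glucose group, grouped by the titles) was sequenced on an Illumina HiSeq. The authors deposited 1 table of CPM, scaled by TMM factors from edgeR. The submitters' processing notes name hg38, the study's methods hg19, and the counter, its strand use and the annotation are not established. Of values below 200 reads, 72.0% to 73.3% were whole reads (tolerance 0.005 read), so whole reads were not recovered and no count model was used. Depth is the column sum divided by the value of 1 read. Depths and floors cover counting error only.

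Of 21077 lines, 18 pseudoautosomal Y copies, identical to their X copies, were dropped. All 21059 genes, 856 of them at 0 in every library, were fitted as log2(CPM + 1) with limma 3.58.1 (R 4.3.3; eBayes with trend, no covariate, 2-sided), with Benjamini-Hochberg adjustment over all genes and a threshold of 0.05. Changes are on that scale, which understates those of low genes. Transcript lengths and overlaps came from GENCODE release 44 on GRCh37, coordinates and promoters from RefSeq GRCh38.p14. The steps were tested on simulated data. The labels do not say whether libraries with the same replicate number are paired.

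The members, lists and tests were chosen with earlier results of these data known. All members were named, with the 3 genes of smallest adjusted p and a mean of at least 1 CPM in each list, MYCN, PVT1, MLX, MLXIP and MLXIPL, and the 3 genes most like MYC and MAX. Of the genes this rule selects, 1 is not reported here. Other genes are said to be chosen after their values were seen. Alternatives were a pseudocount of 0.1 CPM, a minimum mean of 1 CPM, median-of-ratios scaling, removal of each length trend, a replicate block, robust eBayes and leaving out each library. Correlations without high glucose replicate 1 were added after seeing the data.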

Additional observations from a re-analysis of the deposited data

Results flagged for a closer look

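In groups of 4 libraries, 7 of 94 groups of values examined held 1 library far from the other 3 by Dixon's ratio at the 95% level, where chance gives about 1 in 20, or 4.7. Of the members this was MXI1 at low glucose, where replicate 1 was at 23.6 CPM and the others at 19.6 to 20.04 CPM (ratio 0.894). The ratio of MXD1 to MXD4 per kilobase was 1.78 in high glucose replicate 4 and 1.35 to 1.41 in the others (ratio 0.850). In high glucose replicate 1, 3 genes around the network stood apart: SUPT5H at 75.5 CPM (ratio 0.861), HDAC1 at 103.7 CPM (ratio 0.947) and NDRG1 at 145 CPM (ratio 0.877). At low glucose, RBBP7 was at 167 CPM in replicate 2 (ratio 0.885) and USF2 at 113 CPM in replicate 4 (ratio 0.920). These libraries were kept.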

How the results depend on the processing

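The number of members called was 3 to 4 when single libraries were left out, 5 with the length trend removed and 4 under the other alternatives. MXD1, MAX and MXD4 passed under all 14 alternatives, and MYC under 7 of them. The activator cofactor list moved from 5 genes called to 8 when genes under 1 CPM were not tested, 8 with median-of-ratios scaling and 11 with the length trend removed, and to 5 to 7 without single libraries; the other lists stayed within 1.5 times their counts. Over all genes 8899 to 10156 were called when single libraries were left out, beside 9849, and 9747 with median-of-ratios scaling, 4974 higher and 4773 lower.

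With the replicate number as a block, 4 members and 8921 genes were called. The deviations of same-numbered libraries correlated at 0.07, -0.03, 0.01 and -0.04 over 11297 genes, so the numbers name but do not pair the libraries, and not every library correlated best with its own number. Under the block MLXIPL had an adjusted p of 0.0587.

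Depth limits MYCL, with 13.1 to 26 reads per library, and MYCN. Shared exon bases limit MXD3, with PRELID1 if strand was not used and with RAB24 in either case.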
